A study of Oryza sativa with 12 samples.

Results

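The 48 genes described here are listed as members of the Aux/IAA and ARF families of rice (Oryza sativa), the repressors and the transcription factors of the nuclear auxin response. Whether the list holds every member of either family was not checked. Family counts, sums, shares and rankings below therefore cover the listed genes only. They were chosen by locus identifier and not by any measured value, 25 as Aux/IAA genes and 23 as ARF genes, out of 38034 identifiers in the expression files. The family of each gene was taken from its place in that list, which gives the Aux/IAA genes first and the ARF genes second, and could not be checked against an annotation, so every count by family rests on it. All 48 were present in all 12 libraries, and all 48 passed the filter on low values (at least 1 FPKM in at least 3 libraries). No source used here pairs these identifiers with gene names, so each gene is given by its identifier and its family, with the chromosome read from the identifier.

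Auxin acts in the nucleus through a short chain of proteins. Aux/IAA proteins bind ARF transcription factors and keep auxin-responsive promoters repressed; auxin joins an Aux/IAA protein to an F-box receptor of the TIR1/AFB group, the Aux/IAA protein is degraded, and the ARF is released. Many Aux/IAA genes are themselves induced by auxin within a short time, whereas ARF proteins bind auxin response elements and either activate or repress their targets, and in plants the pathway is known for its part in root branching, vascular development and shoot growth.

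RNA was sequenced from shoot and root of wild-type Nipponbare plants (WT) and of the mutant line osspt5-1#12, in which the transcription elongation factor OsSPT5-1 is depleted according to the title of the series. The plants were in vegetative growth in a growth chamber, at an age that the labels do not give, and all groups shared those conditions without further treatment. Each of the 4 groups (WT shoot, mutant shoot, WT root and mutant root) had 3 libraries, called library 1, 2 and 3 by their numbers in the labels. The mutant is 1 line, and the kind of mutation is not given. The labels do not say whether the libraries of a group came from separate plants, so the p-values below measure the spread between libraries, which may be technical.

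Levels are in FPKM, the fragments of a gene scaled to its length and to the size of the library, and can therefore be compared between genes of different length. Reads recovered from these values numbered 10118071 to 15749857 per library, and 3 reads in a gene of 1 kb corresponded to 0.1905 to 0.2965 FPKM. Between libraries of a group, the log2(FPKM + 1) values of all tested genes correlated at 0.908 to 0.951 in WT shoot and 0.877 to 0.92 in mutant root, below the 0.961 to 0.971 of the other groups. The tissue labels were compared with short lists of identifiers taken as shoot and root markers, which could not be checked against an annotation. All 4 shoot markers were higher in shoot, and the 3 tested root markers of 5 were higher in root. The other 2 root markers were near 0 in all groups. The summed level of the root markers was 687 to 949 FPKM in WT root and 228 to 902 FPKM in mutant root; 2 root markers and 1 shoot marker fell in mutant root. The third tested root marker had 163 FPKM on average in WT root and 338 in mutant root (log2 difference 0.80, limma adjusted p = 0.463), and 644 of the 902 FPKM came from it in mutant root library 3. In such tissue samples fewer cells of a type and less RNA per cell cannot be told apart. The part of the marker difference in the root results below was not tested. The level of OsSPT5-1 itself was not analysed here.

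Both families were expressed broadly, and they leaned towards different organs. Aux/IAA genes had a median level of 8.26 FPKM in WT shoot and 19.4 FPKM in WT root, and 11 of 25 reached a mean of 10 FPKM in WT shoot against 20 of 25 in WT root. ARF genes leaned the other way, with a median of 27.8 FPKM in WT shoot and 16.9 FPKM in WT root, and 7 of 23 reached 50 FPKM in WT shoot against 2 in WT root. The summed level of the Aux/IAA family was 612.8, 421.3 and 513.4 FPKM in the 3 WT shoot libraries and 688.1, 621.4 and 502.2 FPKM in the 3 WT root libraries, so that the groups overlapped. The summed ARF level was 934.9, 635.8 and 875.3 FPKM in WT shoot and 648.5, 626.2 and 517.9 FPKM in WT root, where a single shoot library lay within the range of the root libraries.

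**Figure D1:**
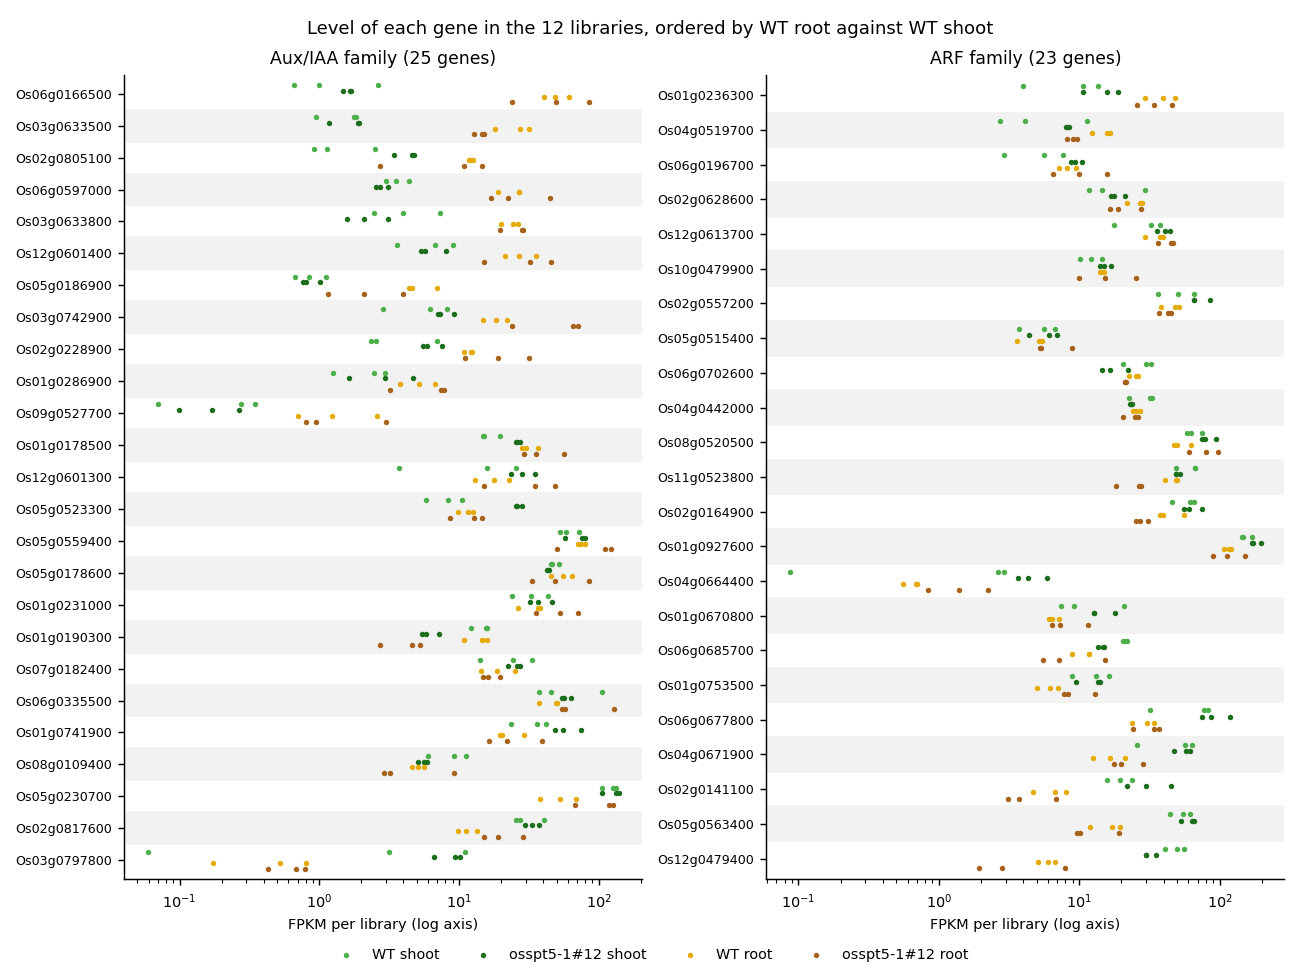
FPKM of each gene in the 12 libraries on a log axis, by family, with genes ordered by the difference between WT root and WT shoot and 1 point for each library. Aux/IAA genes spread from 0.231 to 122 FPKM in their WT shoot means, and the genes at the root-high end of that family sit at low shoot levels.

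A few genes made up a large share of each family. The 3 highest Aux/IAA genes over all libraries were Os05g0230700 on chromosome 5 (mean 101 FPKM), Os05g0559400 on chromosome 5 (75.6 FPKM) and Os06g0335500 on chromosome 6 (61.7 FPKM). The 3 highest genes of each group accounted for 47.7% of the summed Aux/IAA level in WT shoot and 30.4% in WT root. Os01g0927600 on chromosome 1 was the highest ARF gene, at 142 FPKM over the 12 libraries, and it was the highest of its family in each group, with 154 ± 14.6 FPKM in WT shoot, 179 ± 15.4 in mutant shoot, 115 ± 6.8 in WT root and 118 ± 30.7 in mutant root (SD, n = 3). It was followed by Os08g0520500 (70.1 FPKM) and Os06g0677800 (54.7 FPKM). Os08g0520500 has a gene length of 608 bases in the recovered values, against 2342 bases or more for every other ARF gene, and what its row covers was not tested. At the low end, Os09g0527700, an Aux/IAA gene, had 0.277, 0.07 and 0.348 FPKM in WT shoot, close to the level that 3 reads give.

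Differences between the organs were tested on log2(FPKM + 1) with limma, in 1 fit over the 12 libraries and 25337 genes, with Benjamini-Hochberg adjustment over all of them and a threshold of 0.05. Between WT root and WT shoot 34.3% of all tested genes passed, 17.8% higher in root and 16.5% lower. Of the 25 Aux/IAA genes 11 were higher in root, 2 were higher in shoot and 12 did not pass. Of the 23 ARF genes 2 were higher in root, 7 were higher in shoot and 14 did not pass. Os09g0527700, counted among the 11, passed the filter on low values only through root libraries. With no filter, 10 Aux/IAA genes were higher in root and 2 in shoot, and 2 ARF genes were higher in root and 6 in shoot. The median difference, root minus shoot, was 0.54 for Aux/IAA and -0.37 for ARF genes, beside 0.12 for all tested genes. The Aux/IAA median rested on single libraries, with 0.24 without WT shoot library 2 and 0.84 without WT shoot library 1. The 7 ARF genes higher in shoot became 4 without WT shoot library 1, WT shoot library 3 or WT root library 3. The libraries of the organs did not overlap for 60% of Aux/IAA genes, 12 higher in root and 3 lower, and for 43.5% of ARF genes, 2 higher and 8 lower, beside 53.2% of all genes (30.2% higher and 23% lower).

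Os06g0166500 on chromosome 6 showed the largest organ difference of either family. It had 0.663, 2.62 and 1.0 FPKM in the WT shoot libraries and 61.4, 48.5 and 40.4 FPKM in the WT root libraries. Every root library was far above every shoot library, and the means differed 35.1-fold. On the log2(FPKM + 1) scale the difference was 4.46 (SE 0.413, limma adjusted p = 1.51e-05).

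Os03g0633500 on chromosome 3 followed, with 1.83, 1.78 and 0.952 FPKM in WT shoot and 27.4, 31.8 and 18.1 FPKM in WT root (log2 difference 3.39, limma adjusted p = 3.1e-06). Its neighbour by identifier, Os03g0633800, is also an Aux/IAA gene and was also higher in root, with 7.37, 2.45 and 3.95 FPKM in WT shoot and 24.5, 26.6 and 20 FPKM in WT root (2.23, limma adjusted p = 0.000249). In both genes all root libraries exceeded all shoot libraries. The other neighbouring pair of the family, on chromosome 12, was not alike in its calls: Os12g0601400 was higher in root (2.00, limma adjusted p = 0.00234), whereas for Os12g0601300 the difference was 0.54 (limma adjusted p = 0.515). Whether the 2 genes of that pair differ from each other was not tested. Genes of such pairs can share reads if their sequences are similar, and no source used here says how the authors assigned shared reads.

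The third root-high Aux/IAA gene by size was Os02g0805100 on chromosome 2, with 0.915, 1.13 and 2.5 FPKM in WT shoot and 12, 11.8 and 12.7 FPKM in WT root (2.44, limma adjusted p = 0.00155). The 2 Aux/IAA genes that were higher in WT shoot were both well expressed. Os02g0817600 had 40.4, 25.6 and 27.4 FPKM in WT shoot and 13.5, 11.3 and 9.87 FPKM in WT root (-1.34, limma adjusted p = 0.00139). Os05g0230700, the highest gene of the family, had 134, 105 and 127 FPKM in WT shoot and 68.6, 53.1 and 37.8 FPKM in WT root (-1.22, limma adjusted p = 0.00471). Neither gene showed overlap between the organs.

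Among the ARF genes, the largest organ difference was that of Os12g0479400 on chromosome 12. It had 55.5, 41.1 and 49.5 FPKM in WT shoot and 6.05, 6.74 and 5.1 FPKM in WT root, so that the lowest shoot library was several times the highest root library. The log2 difference was -2.83 (SE 0.335, limma adjusted p = 7.68e-05). Os05g0563400 on chromosome 5 had 61.4, 44.2 and 54.6 FPKM in WT shoot and 19.5, 17.2 and 11.9 FPKM in WT root (-1.68, limma adjusted p = 0.000548). Os02g0141100 on chromosome 2 had 23.8, 15.8 and 19.6 FPKM in WT shoot and 8.05, 6.76 and 4.68 FPKM in WT root (-1.47, limma adjusted p = 0.00421). In all 3 genes the organs stood apart in every library.

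The 2 ARF genes that were higher in WT root went against the leaning of their family. Os01g0236300 on chromosome 1 had 10.6, 3.96 and 13.6 FPKM in WT shoot and 48.4, 39.6 and 29.6 FPKM in WT root (2.06, limma adjusted p = 0.00176). Os04g0519700 on chromosome 4 had 11.3, 2.73 and 4.09 FPKM in WT shoot and 15.8, 16.5 and 12.3 FPKM in WT root (1.36, limma adjusted p = 0.0114). The organs did not overlap for either gene, although WT shoot library 1 came close to the root libraries for Os04g0519700.

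Root-high Aux/IAA genes and shoot-high ARF genes were also found in the mutant. Between mutant root and mutant shoot, a comparison added after the data had been seen, 30.6% of all tested genes passed, 13.9% higher in root and 16.7% lower. Of the Aux/IAA genes 8 were higher in mutant root and 3 were lower. Of the ARF genes 1 was higher and 9 were lower. With no filter on low values, the 8 Aux/IAA genes became 7 and the 1 ARF gene became 0. The 3 Aux/IAA genes higher in mutant shoot became 5 without mutant root library 3, and the 1 ARF gene higher in mutant root became 0 without any one library of mutant shoot or WT root, mutant root library 2 or mutant root library 3. All 8 root-high Aux/IAA genes of the mutant were among the 11 of WT, and 5 ARF genes were higher in shoot in both genotypes. Of the shoot-high Aux/IAA genes, 2 were called in WT, 3 in the mutant and 0 in both. Os02g0817600, called in WT, differed by -0.70 in the mutant (limma adjusted p = 0.0507), and its organs did not overlap in either genotype. Of these genes, only Os05g0523300 was called for the difference of the mutant effect between the organs. The libraries of the mutant organs did not overlap for 10 Aux/IAA genes higher in root and 6 lower, and for 1 ARF gene higher and 11 lower, beside 19.2% and 22.1% of all genes. None of the 48 genes was called in opposite directions in the 2 genotypes, and 43 of 48 genes had the same sign in both. The matching shares of all tested genes, and of those called in both genotypes, were not computed. These counts therefore have nothing to be set beside. Os06g0166500 differed by 4.20 in the mutant and Os12g0479400 by -2.82, close to their WT values. Os02g0805100 and Os04g0519700, called in WT, differed by 0.76 and 0.10 in the mutant and did not pass (limma adjusted p = 0.229 and 0.861). The difference between the genotypes in these values did not pass either (limma adjusted p = 0.199 and 0.219).

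**Figure D2:**
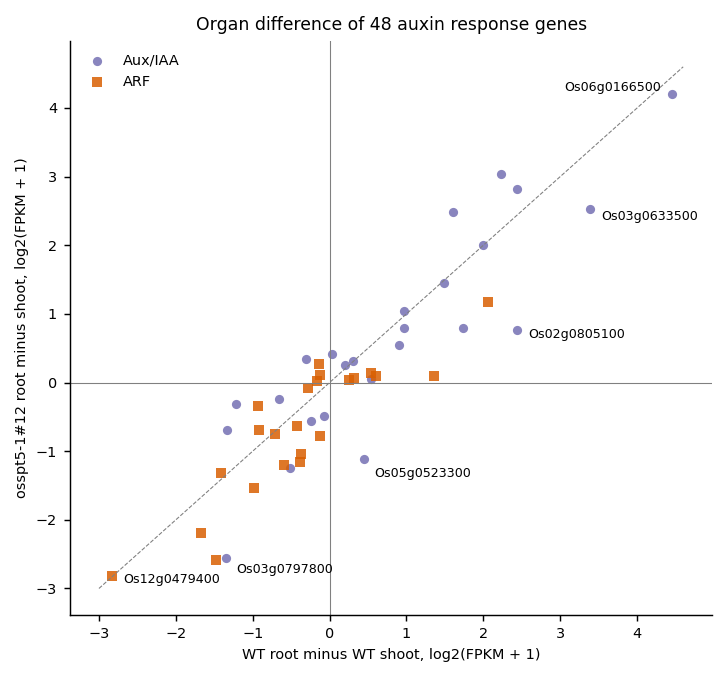
Root minus shoot difference on the log2(FPKM + 1) scale in WT (horizontal axis) and in osspt5-1#12 (vertical axis), 1 point for each of the 48 genes, coloured by family. Most points lie near the diagonal, with Aux/IAA genes towards root and ARF genes towards shoot, and Os06g0166500 is the outermost point at 4.46 and 4.20.

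Few genes of either family were called between osspt5-1#12 and WT. In shoot, 1 Aux/IAA gene rose, 1 fell and 23 did not pass, and none of the 23 ARF genes passed with limma; 9.5% of all tested genes passed in that comparison, 4.8% higher and 4.69% lower in the mutant. At an unadjusted limma p under 0.05, 6 Aux/IAA and 4 ARF genes passed in shoot. The share of all tested genes at that cut was not computed, so these counts have nothing to be set beside. At the adjusted threshold, limma-voom on the recovered reads called 2 Aux/IAA genes and 0 ARF genes. The share of all genes that limma-voom called was not computed, in either organ or for the difference between them. The shares given here belong to the main fit. In root, no Aux/IAA gene rose and 1 fell, no ARF gene rose and 1 fell, beside 7% of all genes (2.63% higher and 4.37% lower). At the unadjusted cut 6 Aux/IAA and 3 ARF genes passed there, again without a share of all genes. At the adjusted threshold, limma-voom called 1 of each family in root. The median log2 difference in shoot was 0.15 for Aux/IAA and 0.27 for ARF genes, beside 0.13 for all genes, and in root it was 0.10 and -0.11, beside 0.06. The libraries of the genotypes did not overlap in shoot for 7 of the 48 genes higher in the mutant and 5 lower, beside 23.9% and 15% of all genes (38.8% together). In root they did not overlap for 5 genes higher and 7 lower, beside 12.3% and 11.6% (23.9% together).

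These counts do not show that the other genes were unaffected. The 95% interval of the difference lay within 2-fold in either direction for 12 of 25 Aux/IAA and 12 of 23 ARF genes in shoot, and for 13 and 12 in root. The intervals of the other genes reached 2-fold or beyond, and for some of them, the called genes among them, they excluded 0. These intervals are on the log2(FPKM + 1) scale, where the added 1 narrows those of low genes. Os09g0527700 in shoot (means of 0.231 FPKM in WT and 0.179 in the mutant, interval -0.808 to 0.69) counts as within 2-fold. For such a gene a larger change of the FPKM itself is not bounded.

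**Figure D3:**
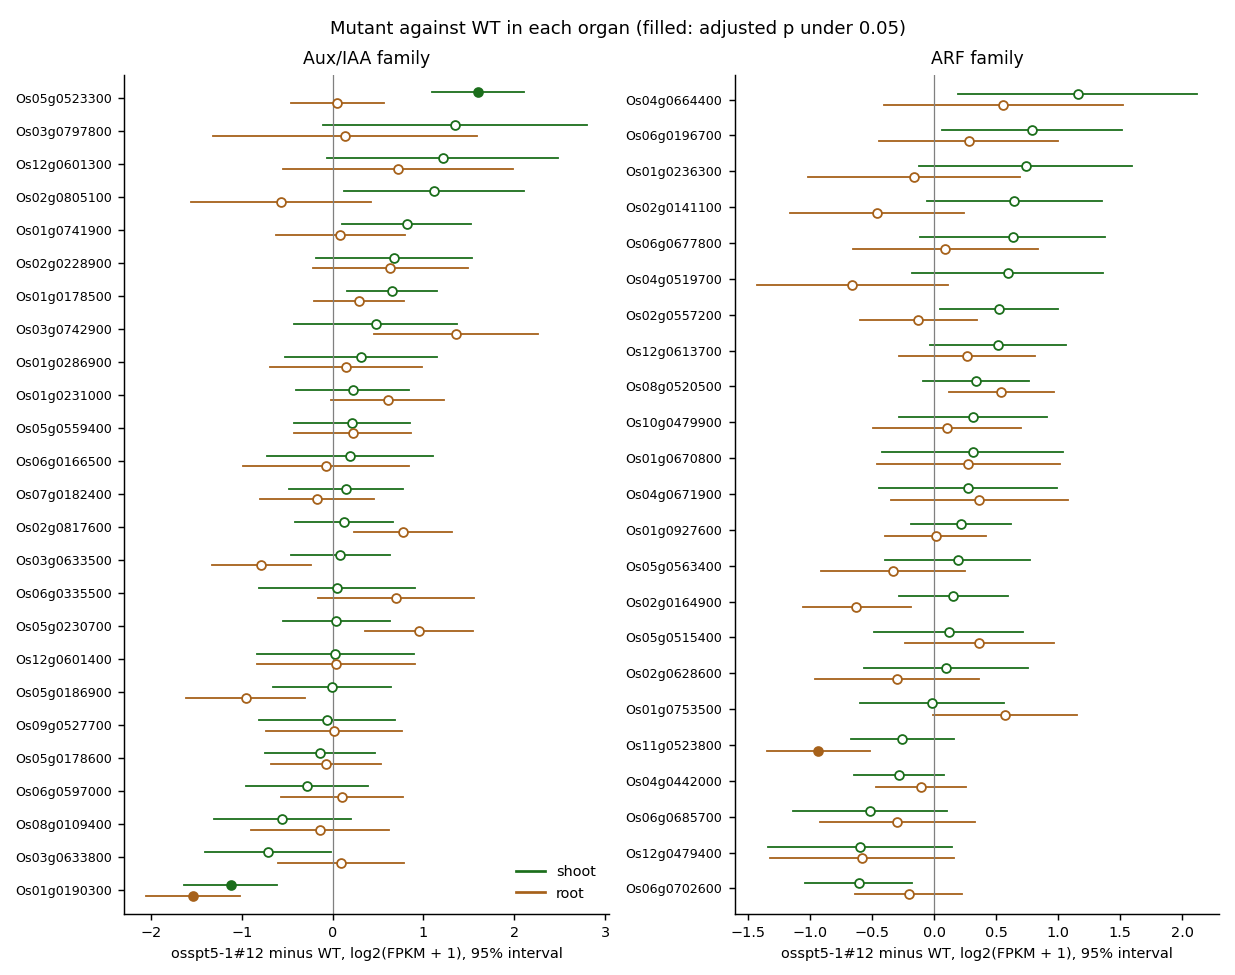
Difference between osspt5-1#12 and WT on the log2(FPKM + 1) scale in shoot and root for each gene, by family, as points with 95% intervals; filled points have an adjusted p under 0.05. The filled points are Os05g0523300 and Os01g0190300 in shoot, and Os01g0190300 and Os11g0523800 in root.

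Os05g0523300, an Aux/IAA gene on chromosome 5 with a gene length of 1396 bases, rose in mutant shoot. It had 10.6, 5.8 and 8.38 FPKM in WT shoot and 25.6, 25.9 and 28.1 FPKM in mutant shoot, a 3.21-fold difference of the means. Each mutant shoot library was more than double the highest WT library. The log2 difference was 1.60 (SE 0.231, limma adjusted p = 0.00158), and it stayed called in every alternative tried, between 1.4 and 1.78.

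In root the same gene had 9.91, 12.6 and 11.6 FPKM in WT and 12.9, 14.6 and 8.58 FPKM in the mutant. These libraries overlapped, and the log2 difference was 0.05 (95% interval -0.458 to 0.563, limma adjusted p = 0.93). The difference between the organs in the mutant effect was itself tested and gave -1.55, root minus shoot (SE 0.327, limma adjusted p = 0.0281). Os05g0523300 was the only gene of the 48 called for that difference, beside 3.52% of all tested genes (1.55% with a more positive effect in root, 1.98% with a more negative one). None of the ARF genes passed with limma, and limma-voom called 0 of them. At an unadjusted limma p under 0.05, 5 Aux/IAA and 4 ARF genes passed, and the share of all tested genes at that cut was not computed. The call for Os05g0523300 rests on a narrow margin: its adjusted p ranged from 0.019 to 0.111 over the alternatives, and was 0.0505 to 0.0805 when any of 8 libraries was left out (WT shoot 2, WT shoot 3 or any of the libraries of mutant shoot and WT root). The shoot-high mutant level also gave the gene an organ call in the mutant that WT lacked, -1.11 (limma adjusted p = 0.00431) against 0.44 in WT (limma adjusted p = 0.167).

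Os01g0190300, an Aux/IAA gene on chromosome 1 with a gene length of 1790 bases, fell in both organs of the mutant. It had 15.9, 12.2 and 15.6 FPKM in WT shoot and 5.81, 5.46 and 7.16 FPKM in mutant shoot. It had 14.6, 15.9 and 10.9 FPKM in WT root and 2.72, 4.59 and 5.22 FPKM in mutant root. In each organ every mutant library was below every WT library, and the WT organs differed by -0.08 on the log2 scale (limma adjusted p = 0.831). The means were 2.37-fold lower in mutant shoot and 3.31-fold lower in mutant root. The log2 difference was -1.12 in shoot (SE 0.232, limma adjusted p = 0.0126) and -1.53 in root (SE 0.232, limma adjusted p = 0.00364), and their difference did not pass (-0.41, limma adjusted p = 0.594). It was the only gene of the 48 called in the same direction in both organs, beside 1.49% of all tested genes. Among libraries left out singly, the shoot call was lost without WT shoot library 3 (adjusted p = 0.0557), mutant shoot library 1 (0.0546) or mutant shoot library 2 (0.0545), within a range of 0.00171 to 0.0656 over the alternatives. The root call was lost only where the root groups were fitted alone (0.0887, in a range of 0.000917 to 0.0887).

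Os11g0523800, an ARF gene on chromosome 11 with a gene length of 3337 bases, fell in mutant root. It had 50.2, 48.9 and 40.8 FPKM in WT root and 26.8, 18.3 and 27.6 FPKM in mutant root, with no overlap and a 1.92-fold difference of the means. In shoot it had 67.3, 48.7 and 66.5 FPKM in WT and 49.1, 49.2 and 52.5 FPKM in the mutant, where the groups overlapped. The log2 difference was -0.93 in root (SE 0.187, limma adjusted p = 0.0156) and -0.26 in shoot (limma adjusted p = 0.427), and the difference between the organs did not pass (-0.68, limma adjusted p = 0.215). Among libraries left out singly, the root call was lost without WT root library 1 (adjusted p = 0.0595) or WT root library 2 (0.0632); it was also lost in the fit of the root groups alone (0.115), which bounds a range of 0.00813 to 0.115 over the alternatives.

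**Figure D4:**
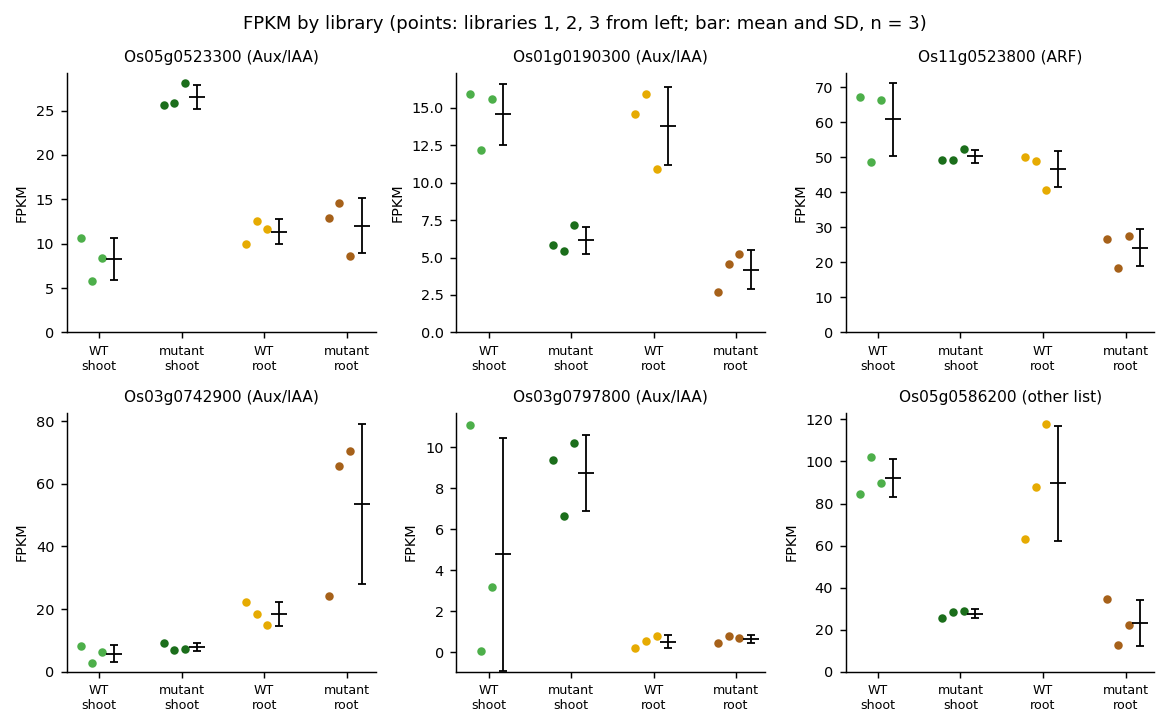
FPKM in each library of the 4 groups for 6 genes, with points for libraries 1, 2 and 3 from left to right and a bar for the mean and SD (n = 3). Os05g0523300 is high in mutant shoot alone, Os01g0190300 and Os05g0586200 are low in both mutant organs, and in Os03g0742900 and Os03g0797800 a single library of a group lies away from the other two.

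Some genes differed by 2-fold or more on the log2(FPKM + 1) scale without passing, and their libraries were spread widely in at least some of the groups. Os03g0742900, an Aux/IAA gene on chromosome 3, had 22.2, 18.3 and 14.8 FPKM in WT root and 24.1, 65.6 and 70.6 FPKM in mutant root. Mutant root library 1 lay near the WT level and the other two well above it. The log2 difference was 1.36 (limma adjusted p = 0.0703), and without mutant root library 1 it was 1.84 (0.00641, in a range of 0.00641 to 0.224 over the alternatives).

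Os03g0797800, an Aux/IAA gene, had 11.1, 0.0593 and 3.18 FPKM in WT shoot and 9.36, 6.64 and 10.2 FPKM in mutant shoot (log2 difference 1.35, limma adjusted p = 0.234). The value in WT shoot library 2 was a single read, and WT shoot library 1 lay above all mutant libraries; without WT shoot library 1 the difference was 2.19 (adjusted p = 0.0201), and without WT shoot library 2 it was 0.43 (0.657), the ends of its range over the libraries left out. Os12g0601300 had 25.4, 3.73 and 15.8 FPKM in WT shoot and 23.6, 28.2 and 35.3 FPKM in mutant shoot (1.21, limma adjusted p = 0.222), again with WT shoot library 2 as the lowest; without it the difference was 0.49.

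Os04g0664400, a weakly expressed ARF gene on chromosome 4, had 2.92, 0.0874 and 2.64 FPKM in WT shoot and 4.32, 3.65 and 5.93 FPKM in mutant shoot (1.16, limma adjusted p = 0.129). The groups did not overlap, but without WT shoot library 2 the difference was 0.56. Os02g0805100, one of the root-high Aux/IAA genes, had 0.915, 1.13 and 2.5 FPKM in WT shoot and 4.62, 4.77 and 3.45 FPKM in mutant shoot (1.11, limma adjusted p = 0.155). All mutant shoot libraries were above all WT shoot libraries. In the root the same gene had 12, 11.8 and 12.7 FPKM in WT and 14.7, 10.9 and 2.74 FPKM in the mutant, where mutant root library 3 stood alone at the low end. Without that library the shoot difference, still 1.11, passed (limma adjusted p = 0.0147). In the fit of the shoot groups alone it did not (0.0558), in a range of 0.0147 to 0.342 over the alternatives.

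The neighbours Os03g0633500 and Os03g0633800 had different values in mutant root. Os03g0633500 had 14.7, 15.1 and 12.8 FPKM there, below all WT root libraries, with a log2 difference of -0.78 (limma adjusted p = 0.0816). Os03g0633800 had 28.8, 28.3 and 19.7 FPKM, overlapping WT root, with a difference of 0.10 (limma adjusted p = 0.899). Neither passed, and the contrast between them was not tested.

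None of the 6 genes with the highest levels, 3 in each family, passed between the genotypes in either organ. Os05g0230700, the highest Aux/IAA gene, had 68, 119 and 126 FPKM in mutant root against 68.6, 53.1 and 37.8 FPKM in WT root (0.95, limma adjusted p = 0.0579), with mutant root library 1 inside the WT range. In shoot it had 139, 105 and 133 FPKM in the mutant, which overlapped the WT libraries. The summed Aux/IAA level in mutant shoot was 590.7, 586.3 and 607.1 FPKM, inside the WT shoot range. In mutant root it was 621.2, 931.3 and 823.6 FPKM, and library 1 again lay within the WT range. The summed ARF level was 924.9, 844.2 and 1002.3 FPKM in mutant shoot, overlapping WT shoot. In mutant root it was 540.8, 606.8 and 601.9 FPKM, within the range of WT root.

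Single libraries stood apart across both families. WT shoot library 2 was the lowest of its group for 39 of 48 genes, 18 Aux/IAA and 21 ARF, where it was the lowest for 44.9% of all tested genes. WT root library 3 was the lowest of its group for 41 of 48 genes, against 45.4% of all genes. Mutant root library 1 was the lowest for 28 of 48, against 44.4%. The median deviation of WT shoot library 2 from its group mean was -0.23 for Aux/IAA and -0.40 for ARF genes on the log2(FPKM + 1) scale. Without that library the median mutant difference in shoot was 0.01 for Aux/IAA and 0.06 for ARF genes, in place of 0.15 and 0.27; over the 6 shoot libraries left out singly it ranged from 0.01 to 0.32 and from 0.06 to 0.44, highest without WT shoot library 1. With median-ratio factors, which shifted the median of all genes in shoot from 0.13 to -0.01, the medians in shoot were -0.03 and 0.09, so the direction of the Aux/IAA median turned. In root the same factors gave -0.01 and -0.22, beside -0.01 for all genes, and the Aux/IAA median turned there too. Single libraries also decided the root medians: the Aux/IAA median of 0.10 was -0.016 without WT root library 3, -0.004 without mutant root library 2, 0.16 to 0.18 without either other WT root library, 0.26 when mutant root library 3 was left out and 0.20 when it was mutant root library 1. The ARF median of -0.11 was 0.001 without WT root library 1 and -0.017 without mutant root library 1. What sets these libraries apart was not tested.

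**Figure D5:**
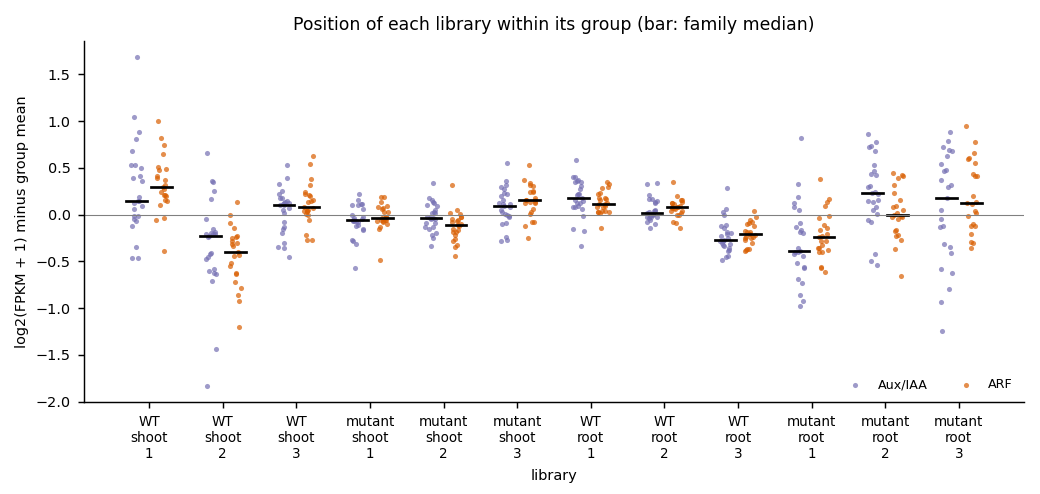
Deviation of each gene from the mean of its group on the log2(FPKM + 1) scale, by library, with a bar for the median of each family. WT shoot library 2 (-0.23 for Aux/IAA and -0.40 for ARF genes), WT root library 3 (-0.27 and -0.21) and mutant root library 1 (-0.39 and -0.24) lie low in both families.

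The spread within groups differed between the groups. The median coefficient of variation of the Aux/IAA genes was 32.4% in WT shoot, 15.2% in mutant shoot, 18.9% in WT root and 46.4% in mutant root. For the ARF genes it was 28.4%, 12%, 15% and 27.4% in the same order. Over all tested genes it was 24.7%, 16.6%, 18.2% and 41.1%, so WT shoot and mutant root were the more variable groups there too. The main fit took a common spread for each gene from all groups, so p-values in root also rest on the shoot libraries. In the fit of the root groups alone, the root calls of Os01g0190300, Os11g0523800 and, among genes described next, Os05g0586200 and Os01g0221100 were all lost. Their limma adjusted p there was 0.0887, 0.115, 0.109 and 0.0622, in that order. Whether the unequal spread or the smaller number of libraries lay behind this was not tested.

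A list of 24 other auxin-pathway identifiers was drawn up for receptors and for enzymes of auxin synthesis and conjugation; 22 were in the files and 14 passed the filter. Their roles could not be checked against an annotation and are not given one by one, since no source used here pairs the identifiers with names. In mutant shoot 1 of the 14 rose and 1 fell, beside 4.8% and 4.69% of all tested genes. In mutant root none rose and 3 fell, beside 2.63% and 4.37%. Os03g0162000 fell there, from 2.39, 2.45 and 1.97 FPKM in WT root to 0.541, 0.319 and 0.589 FPKM in mutant root (-1.14, limma adjusted p = 0.00569). In shoot it did not pass (-0.56, limma adjusted p = 0.0898). How its root call fared under the alternatives, the fit of the root groups alone among them, was not looked at. Os05g0586200 fell in both organs, from 84.3, 102 and 89.8 FPKM in WT shoot to 25.4, 28.6 and 29 FPKM in mutant shoot, and from 63.3, 87.7 and 118 FPKM in WT root to 34.5, 12.6 and 22.4 FPKM in mutant root. No mutant library reached the lowest WT library of its organ. The log2 difference was -1.70 in shoot (SE 0.314, limma adjusted p = 0.00687) and -1.97 in root (limma adjusted p = 0.00485); the root call was lost in the fit of the root groups alone (0.109, in a range of 0.00129 to 0.109).

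Os01g0221100 fell in mutant root, from 3.94, 4.33 and 3.18 FPKM to 1.27, 0.739 and 0.987 FPKM (-1.27, limma adjusted p = 0.0129); the call was lost without WT root library 2 (0.0586) and in the fit of the root groups alone (0.0622), in a range of 0.00843 to 0.0914 over the alternatives. Os07g0671500 rose in mutant shoot, from 3.05, 0.968 and 2.43 FPKM to 5.72, 4.71 and 6.05 FPKM (1.10, limma adjusted p = 0.0328), but without WT shoot library 2 the difference was 0.79 (adjusted p = 0.0948). The call was also lost in the fit of the shoot groups alone (0.0715) and when WT shoot library 3, WT root library 2 or any library of mutant shoot was left out, in a range of 0.0199 to 0.115 over the alternatives. In both genes the groups did not overlap. Between WT root and WT shoot 8 of the 14 were higher in root and none was lower, beside 17.8% and 16.5% of all tested genes. The filter on low values had a part in these counts. Some of the 8 passed it only through root libraries, such as Os01g0732700 (means of 0.191 FPKM in WT shoot and 3.22 in WT root). Some listed genes with more in shoot did not pass it, such as Os12g0512000 (0.544 and 0.0428 FPKM). The one-sided count is therefore not read as a trait of the list.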

How the data were processed

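Expression was measured by RNA-seq in 12 libraries of 4 groups, with a NEBNext Ultra kit that does not mark strand, so reads of overlapping antisense genes cannot be told apart. The authors deposited 1 FPKM value per gene and library, as the column header says. Build IRGSP-1.0 and, as tools without stated roles, HTSeq 0.6.0, HISAT2 2.1.0 and Bowtie2 2.2.3 come from the submitters' processing notes; the annotation release is not given in the sources used here. A gene absent from a file was set to 0; 5725 identifiers were listed in the files of 1 organ only. Whole reads and gene lengths were recovered from the FPKM steps: within 0.002 reads, 100% of rows came out whole, and 98.41% of lengths were whole within 0.05 bases. The RefSeq gene table at hand (39387 entries) matched 1 identifier and 0 of the 48, so no names or sequences are given.

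log2(FPKM + 1) was fitted with limma 3.58.1 (trended variance, R 4.3.3) in 1 model of the 4 groups, over the 25337 genes with at least 1 FPKM in at least 3 libraries, with Benjamini-Hochberg adjustment and a threshold of 0.05. The fit was run on simulated data with the same spread setting for every gene and group, and only the shoot comparison was scored. That run cannot speak to the unequal spread between the groups here. Fold changes on the log2(FPKM + 1) scale understate the change of low genes; plain ratios of means are given as fold. An exact permutation test of 3 against 3 libraries cannot go below 0.1 and was not used. Alternatives were a pseudocount of 0.1, no filter, median-ratio factors, the compared groups alone, the replicate number as a block, limma-voom on recovered reads, and leaving out each library. Genes named are those called between genotypes or for the organ difference of that effect, and per family the 3 highest. Also named are, per family, the 3 with the largest called WT organ difference in each direction, and the neighbouring pairs. Up to 6 not called with a log2 difference of at least 1, and called genes of the other auxin list, were named too. Os09g0527700, Os01g0732700 and Os12g0512000 were named after their values were seen. The genes and lists were chosen with earlier results of these data known.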

Additional observations from a re-analysis of the deposited data

Results flagged for a closer look

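The mutant effect on Os05g0523300, an Aux/IAA gene, differed between the organs: root minus shoot, the log2 difference was -1.55 (SE 0.327, limma adjusted p = 0.0281, the interaction in the fit over 12 libraries). All 3 mutant shoot libraries lay above all 3 WT shoot libraries, while the root groups overlapped.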

How the results depend on the processing

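Apart from Os03g0162000, which was not followed over the alternatives, no value called between the genotypes reversed under any of them. For mutant against WT in shoot, the 2 called Aux/IAA genes became 1 with the replicate block and 1 to 3 when a library was left out (1 without WT shoot 3, mutant shoot 1 or mutant shoot 2); the 0 called ARF genes became 2 with only the compared groups and 0 to 2 when a library was left out (2 without WT shoot 1 or mutant root 3). In root, the 1 called Aux/IAA gene became 3 with median-ratio factors, 0 with only the compared groups and 1 to 4 when a library was left out (4 without mutant root 1, 2 without mutant root 3). The 1 called ARF gene in root became 2 with median-ratio factors, 0 with the replicate block, 0 with only the compared groups and 0 to 3 when a library was left out (0 without WT root 1 or WT root 2, 2 without mutant root 1, 3 without mutant root 3). For the difference between organs, 1 Aux/IAA gene became 0 with the replicate block and 0 to 1 when a library was left out, and 0 ARF genes became 0 to 1 (1 without WT shoot 1). The cause of these changes was not tested. A fit of only the compared groups has fewer libraries to estimate the spread, and takes it from those groups alone. It raised the shoot counts, from 2 to 3 Aux/IAA genes and from 0 to 2 ARF genes, and lowered the root counts. Organ counts summed over both directions in WT and in the mutant stayed within 1.5 times, 12 to 14 and 8 to 15 for Aux/IAA genes and 6 to 10 and 7 to 12 for ARF genes. Same-numbered libraries were at most weakly alike. The correlation of their deviations was -0.116, 0.141 and -0.0493 between genotypes in shoot and -0.274, -0.111 and -0.176 in root. Between organs it was 0.112, 0.032 and 0.185 in WT and 0.0975, -0.121 and 0.137 in the mutant. The labels do not say whether a number marks a shared plant or day. Deviations from means of 3 libraries cannot decide it. Under the replicate block the limma adjusted p was 0.0656 for Os01g0190300 in shoot, 0.0828 for Os11g0523800 in root, 0.111 for the organ difference of Os05g0523300, 0.0926 for Os07g0671500 in shoot and 0.0914 for Os01g0221100 in root, so these calls were lost. Depth limits the low genes: Os03g0797800 and Os09g0527700 had as little as 1 read in a library.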
